A study of Gallus gallus with 28 samples.

Results

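Chicken B cells stimulated through their antigen receptor for 2 h were compared with the same cells stimulated for 6 h, line by line, to ask which responses are brief and which last. The comparison uses 8 of the 28 arrays of the series, the stimulated 2 h array and the stimulated 6 h array of each of 4 cell lines grown in serum batch 1. The arrays were chosen by title. The unstimulated 6 h arrays of the same lines and batch served as the reference level, and the unstimulated 24 h arrays entered the fit.

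The lines derive from DT40, a chicken B-cell lymphoma line used widely for gene disruption. DT40 itself has its endogenous BTK, B7.10 is a BTK knockout, B41-13 is that knockout with human BTK put back, and B46-5 is the knockout with a kinase-inactive human BTK. Each knockout or reconstituted line is 1 line, so line and BTK state cannot be told apart within it. All cells, stimulated or not, started in serum-free medium for a short time and were grown alike, and the stimulus is given as IgM (M4). M4 is known as an antibody that cross-links the surface receptor of chicken B cells. Each array held a pool of 10 experiments, with 1 array per line and condition, so a p-value here measures how far a difference between conditions varied over the 4 lines and holds no repeat of a pool.

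As background, the B-cell receptor signals through SYK and BTK to the phospholipase PLCG2, and from there to calcium, protein kinase C, ERK and NF-kB. Such signals switch on immediate-early genes within minutes to hours, many of which encode transcription factors or inhibitors that end the signal. Sterol and fatty acid synthesis is driven by SREBP factors when the membranes of the cell are short of sterol, and the amino acid response is driven by ATF4.

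The labels of 2 arrays stimulated for 6 h disagree, and these are called the disputed arrays here. The array titled B41-13 carries a source name of B46-5 with 2 h, and the array titled B46-5 carries one with 2 h. Over the 2000 most variable probe sets each lay nearest to the unstimulated 6 h array of its own titled line, at a Pearson correlation of 0.980 and 0.991. Array medians lay between 4.37 and 4.48 log2, and the stimulated 2 h array of B41-13 had the lowest mean, 5.17 against 5.20 to 5.24. Actin signal at the 3′ end exceeded that at the 5′ end by 0.18 to 0.86 log2, lowest in the stimulated 2 h array of DT40. The B-cell marker list had a mean level of 9.61 to 10.13 log2, the epithelial list 3.53 to 3.75, and the other lists lay between 4.50 and 5.59. Of the 6 marker lists, 0 members were called by limma between 2 h and 6 h over the 4 lines (4 at an unadjusted p under 0.05). At 2 h 2 of 8 fibroblast markers were lower than unstimulated. In DT40 and B41-13 alone the myeloid marker CYBB was 1.00 above the unstimulated level at 6 h (limma adjusted p = 0.0339). No unstimulated 2 h array was analysed here, so the time since stimulation and the time in culture cannot be told apart between 2 h and 6 h, or between 2 h and the unstimulated 6 h level. Stimulated and unstimulated 6 h arrays are matched in culture time.

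Between 2 h and 6 h of stimulation many probe sets that had moved at 2 h moved back. Of 38382 probe sets 2747 differed at an adjusted p under 0.05 (7.16%; limma, Benjamini-Hochberg), 1950 of them higher (5.08%) and 797 lower (2.08%) at 6 h. Changes of at least 2-fold were fewer, 46 higher and 81 lower. In 1905 of the 1950 and 768 of the 797 all 4 lines moved the same way, which held for 9766 of all 38382 probe sets. A call itself favours changes that agree over the lines, so these counts are a description. The higher share was 71.0%, and 55.1% after cyclic loess between arrays (1426 higher, 1160 lower). Without the line B41-13 the count was 1379, and without both disputed arrays 1142. Counted over 13009 genes, 1057 were higher and 338 lower. That fell to 490 and 215 without the line B41-13, to 437 and 159 without both disputed arrays, and to 758 and 267 without the stimulated 2 h array of B41-13. With cyclic loess 759 genes were higher and 529 lower. The counts of gene lists under the same settings are to be read against these.

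At 2 h 3056 probe sets (7.96%) differed from the unstimulated 6 h level, 1353 higher (3.53%) and 1703 lower (4.44%). At 6 h 5 differed from it (0.013%), 3 higher (0.00782%) and 2 lower (0.00521%), while 5244 had an unadjusted p under 0.05 in limma. A probe set was called a transient rise when it was higher at 2 h than unstimulated, lower at 6 h than at 2 h, and not called higher at 6 h than unstimulated. There were 642 transient rises and 1053 transient falls, against 1 lasting rise, 1 lasting fall, 2 late rises and 1 late fall. These classes share arrays and are a description, and a missed call at 6 h does not show a return to the unstimulated level. The same arrays chose these probe sets, so their medians at 6 h lie near the unstimulated level partly by that choice. Over the 642 transient rises the 2 h level stood 0.65, 0.65, 0.67 and 0.50 log2 above the unstimulated level in DT40, B7.10, B41-13 and B46-5, and the 6 h level 0.03, 0.15, 0.11 and 0.06 above it. Over the 1053 transient falls the medians were -0.51, -0.34, -0.52 and -0.40 at 2 h and 0.01, 0.16, 0.11 and 0.02 at 6 h. Without the line B41-13 the classes held 379 and 444 probe sets, without DT40 422 and 562, and without B46-5 the falls held 614. They held 299 and 622 without both disputed arrays, and the falls 642 without the stimulated 2 h array of B41-13.

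Genes of sterol synthesis made up the most complete group. Of 22 measured members 16 were lower at 6 h than at 2 h and 0 higher, with a median of -0.92 log2, where 338 of 13009 genes (2.6%) were lower and 1057 (8.13%) higher with a median of 0.03. The same number, 16 of 22, had been higher at 2 h than unstimulated, against 548 of 13009 genes (4.21%). Each later list count of the change from 2 h to 6 h is to be read against 2.6% lower and 8.13% higher. In the rest of this text levels are in log2 and, where 4 stand together, in the order DT40, B7.10, B41-13 and B46-5.

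NSDHL, a dehydrogenase that removes methyl groups from sterol precursors, stood at 7.50, 7.50, 6.90 and 7.57 without stimulation, at 9.41, 9.42, 9.43 and 9.31 at 2 h, and at 7.60, 7.90, 7.43 and 7.88 at 6 h. All 2 h arrays lay above all 6 h arrays, and the 4 lines reached nearly the same 2 h level. From 2 h to 6 h it fell by 1.69 ± 0.15 log2 (SE, 4 lines; limma adjusted p = 4.55e-06). LSS, the lanosterol synthase, fell by 1.58 ± 0.11, from 10.56, 10.44, 10.37 and 10.19 to 9.23, 8.61, 8.64 and 8.74. IDI2, an isopentenyl diphosphate isomerase, fell by 1.59 ± 0.14, the farnesyl diphosphate synthase FDPS by 1.25 ± 0.09 and the reductase DHCR7 by 1.24. The feedback regulator INSIG1 fell by 1.05 and SREBF2, the sterol-responsive transcription factor itself, by 1.04. CYP51A1, MVD, PMVK, SCAP, NPC1 and INSIG2 did not pass, with changes from -0.28 to 0.39. Without both disputed arrays 16 of the 22 were again lower. The medians of the list by line were -1.14, -0.86, -1.08 and -0.58. For a difference between lines with and without active kinase limma called 0 of the 22, and 3 higher and 21 lower of 13009 genes. At an unadjusted p under 0.05 there were 10 of the 22, against 1067 of the 13009.

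The gene with the smallest adjusted p of those named was ACSBG2, which belongs to a family of enzymes that activate long-chain fatty acids. It stood at 8.68, 8.20, 8.04 and 8.88 unstimulated, at 10.60, 10.36, 10.48 and 10.69 at 2 h and at 8.51, 8.25, 8.38 and 8.96 at 6 h. The lowest 2 h array lay above the highest 6 h array by more than the spread of either group. The fall was 2.00 ± 0.10, or 4.01-fold (adjusted p = 6.07e-09). ACSBG2 and NSDHL also rose between 6 h and 24 h without stimulation, by 0.74 (adjusted p = 0.00123) and 1.19 log2, so both levels also moved with time in culture. Of the 22 sterol genes 5 were higher and 1 lower at 24 h than at 6 h without stimulation. Among all 13009 genes 53 were higher and 113 lower. At an unadjusted p under 0.05 in limma there were 10 of the 22, against 1961 of the 13009.

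Of 21 genes of fatty acid synthesis 8 were lower and 1 higher at 6 h, with a median of -0.07. SCD, the desaturase that makes oleic acid, fell by 1.30 ± 0.11 (adjusted p = 1.65e-06), from 8.06, 7.53, 7.74 and 7.17 to 6.48, 6.25, 6.42 and 6.16. Every line returned to within 0.24 of its unstimulated SCD level of 6.43, 6.46, 6.18 and 6.13. LPIN1, a phosphatidate phosphatase, fell by 1.30 ± 0.14 and the elongase ELOVL5 by 0.79 ± 0.07. ACACA and FASN, the acetyl-CoA carboxylase and the fatty acid synthase, fell by 0.86 and 0.42. GPAM, which starts glycerolipid synthesis, went the other way and rose by 0.50 ± 0.10. Without both disputed arrays 6 were lower and 1 higher.

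**Figure D1:**
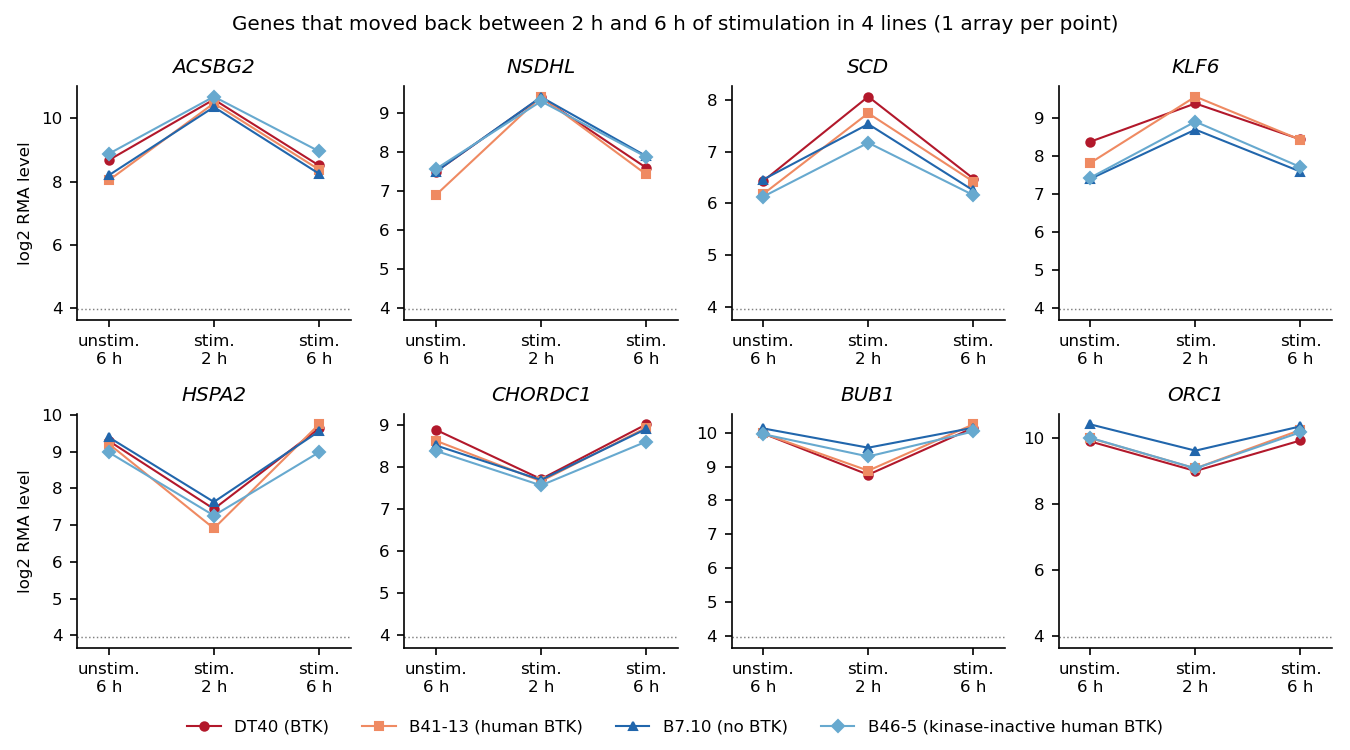
Log2 RMA levels of 8 genes (y axis) at unstimulated 6 h, stimulated 2 h and stimulated 6 h (x axis) in the 4 lines, 1 array per point, with a dotted line at 3.96 log2, the level below which the dimmest 40% of probe sets lie. ACSBG2, NSDHL, SCD and KLF6 peak at 2 h in every line, and HSPA2, CHORDC1, BUB1 and ORC1 are lowest at 2 h in every line.

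Of 21 genes of the ATF4 response 10 were lower and 0 higher at 6 h than at 2 h (median -0.31), and 7 were lower without both disputed arrays. CHAC1, an enzyme that degrades glutathione, stood at 9.64, 9.01, 10.11 and 8.99 at 2 h and at 8.22, 8.09, 8.04 and 7.43 at 6 h, and the groups did not overlap. It fell by 1.49 ± 0.14 (adjusted p = 7.35e-06), to within 0.19 of the unstimulated level in every line. PSAT1, of serine synthesis, fell by 1.10 ± 0.14, the neutral amino acid carrier SLC1A4 by 1.00 ± 0.08 and the large neutral amino acid carrier SLC7A5 by 0.74. ATF4 itself fell by 0.35. Without stimulation 4 of the 21 were lower and 0 higher at 24 h than at 6 h. Among all 13009 genes 113 were lower and 53 higher. Part of this list thus also moved with time in culture.

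SLC2A1, the GLUT1 glucose transporter, stood at 7.79, 7.22, 7.28 and 6.76 at 2 h and at 5.72, 6.13, 5.46 and 5.82 at 6 h. It fell by 1.48 ± 0.16 (adjusted p = 2.7e-05), and the lactate exporter SLC16A3 by 1.41 ± 0.15. They were the 2 called members of the 30 genes of glycolysis and hypoxia (0 higher). The glycolytic enzymes GAPDH, ENO1 and LDHA had changes of -0.01, 0.01 and -0.04. With cyclic loess 5 members of that list were lower.

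Of 28 measured immediate-early genes 12 were lower and 1 higher at 6 h than at 2 h, with a median of -0.44. For 4 of the 28 the fall was larger in the lines with active BTK kinase, against 21 of 13009 genes (0.161%). At an unadjusted p under 0.05 in limma there were 13 of the 28 either way, against 1067 of the 13009. KLF6, a zinc-finger transcription factor, fell in every line, with 9.39, 8.70, 9.57 and 8.91 at 2 h and 8.44, 7.59, 8.43 and 7.71 at 6 h. Each line fell by a like amount, between 0.94 and 1.20, and the mean fall was 1.10 ± 0.10 (adjusted p = 3.33e-06). KLF2, a relative that keeps lymphocytes quiescent in mammals, fell by 0.95 ± 0.10, and BHLHE40, a repressor of the same early class, by 1.02 ± 0.14 on its brightest probe set. The dimmer BHLHE40 probe sets changed by 0.10, -0.27 and -0.40 (adjusted p = 0.506, 0.28 and 0.349). The first of these was lower at 2 h than unstimulated (-0.27, adjusted p = 0.0283). The difference in the KLF6 change between lines with and without active kinase was 0.11 (adjusted p = 0.947), and that of KLF2 was 0.11 (adjusted p = 0.949). RHOB, an early-response GTPase gene outside the lists, fell by 1.47 ± 0.13 with -1.80, -1.33, -1.24 and -1.52 in the 4 lines. FOS and JUN, the AP-1 subunits, both changed by -0.11, and neither passed. MYC stood between 12.5 and 12.8 and changed by -0.13 (adjusted p = 0.423). Without both disputed arrays 4 immediate-early genes were lower and 0 higher, and without the stimulated 2 h array of B41-13 or the whole line it was 6 and 0.

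Among feedback inhibitors of ERK signalling, 4 of 17 were lower and 0 higher at 6 h. SPRY2, which restrains receptor signalling to RAS, fell by 0.88 ± 0.19 (adjusted p = 0.00641), most in DT40 (-1.82, against -0.39, -0.88 and -0.44), and without DT40 changed by -0.57 (adjusted p = 0.0522). The list held 2 lower members without both disputed arrays, without the stimulated 2 h array of B41-13, or without that line. DUSP5, a nuclear ERK phosphatase and the largest fall of those named, is described with the kinase comparison. SOCS3, an inhibitor of cytokine signalling, fell by 0.75 ± 0.11 and was 1 of 2 called among 23 genes of its list (1 higher, 1 lower). TNFRSF8, a receptor of the TNF family also called CD30, fell by 0.92 ± 0.17, and was 1 of 3 lower among 37 cytokine receptor genes (0 higher).

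Mitotic genes moved the other way. Of 32 measured G2/M genes 20 were higher at 6 h than at 2 h and 0 lower (median 0.38), against 8.13% of all genes. Of the same 32 genes 17 had been lower at 2 h than unstimulated, against 881 of 13009 genes (6.77%). In bulk RNA fewer cells in mitosis and less RNA per cell cannot be told apart. BUB1, a kinase of the spindle checkpoint, stood at 9.98, 10.13, 9.98 and 9.96 unstimulated, at 8.76, 9.56, 8.88 and 9.30 at 2 h and at 10.15, 10.15, 10.25 and 10.04 at 6 h. All 2 h arrays lay below all others, and the dip was deepest in DT40 and B41-13. BUB1 rose by 1.02 ± 0.12 from 2 h to 6 h (adjusted p = 5.57e-05).

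BORA, an activator of the mitotic kinase Aurora A, rose by 1.35 ± 0.12, from 7.76, 8.26, 7.44 and 8.14 to 9.29, 9.44, 9.26 and 9.02. ANLN, the actin-binding scaffold of cell division, rose by 1.22 ± 0.15, from 8.12, 8.38, 7.78 and 8.63 to 9.61, 9.56, 9.50 and 9.11. CENPF, a kinetochore protein gene, rose by 1.66 ± 0.17 on the probe set named by the rule and by 1.35 on the brightest. AURKB, the kinase of the chromosome passenger complex, rose by 0.86 ± 0.12, and KIF14, a motor of the midbody, by 1.34 ± 0.16. The main cyclin and kinase of mitosis, CCNB1 and CDK1, changed by 0.22 and 0.19 and did not pass. The medians of the list were 0.50, 0.18, 0.51 and 0.24 in the 4 lines. For a difference by kinase state limma called 0 of the 32, and 3 higher and 21 lower of 13009 genes. At an unadjusted p under 0.05 there were 12 of the 32, against 1067 of the 13009. The count was 10 without the line B41-13, 8 without both disputed arrays and 13 without the stimulated 2 h array of B41-13.

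Fewer S-phase genes moved, 14 of 47 higher and 0 lower (median 0.18), and 6 without both disputed arrays or without B41-13. ORC1, a subunit of the origin recognition complex, rose by 0.99 ± 0.09 (adjusted p = 4.55e-06), from 9.01, 9.63, 9.09 and 9.09 to 9.94, 10.37, 10.26 and 10.19. The repressor E2F7 rose by 0.95 ± 0.13 and the replication factor MCM10 by 0.78 ± 0.13, each on its brightest probe set. The other E2F7 probe set changed by 0.06 (adjusted p = 0.806). The other MCM10 probe set, of nearly the same mean level (6.10 against 6.25), changed by -0.27 (adjusted p = 0.172). The helicase genes MCM2, MCM3, MCM5 and MCM6 had changes from 0.00 to 0.18 and did not pass. With cyclic loess the S-phase list had 11 higher and 1 lower.

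Heat-shock genes included the largest rise of those named. HSPA2, a 70-kDa chaperone gene, stood at 9.29, 9.39, 9.21 and 8.98 unstimulated, at 7.44, 7.63, 6.91 and 7.26 at 2 h and at 9.63, 9.55, 9.74 and 8.98 at 6 h. All 2 h arrays lay below every other array of this set. It rose by 2.17 ± 0.13, or 4.49-fold (adjusted p = 5.81e-08). Without stimulation HSPA2 was lower at 24 h than at 6 h by 0.93 (adjusted p = 0.00202), so its level also moved with time in culture. CHORDC1, a co-chaperone of HSP90, rose from 7.71, 7.69, 7.66 and 7.56 to 9.01, 8.90, 8.93 and 8.60, a change of 1.21 ± 0.08 (adjusted p = 1.76e-07). The lines reached nearly the same 2 h level of CHORDC1. Of 26 heat-shock genes 9 were higher and 0 lower, DNAJA1 among them with 0.76 ± 0.09, while HSP90AB1 and HSPD1 had changes of 0.00 and 0.06. The count was 6 without both disputed arrays and 5 without the line B41-13.

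**Figure D2:**
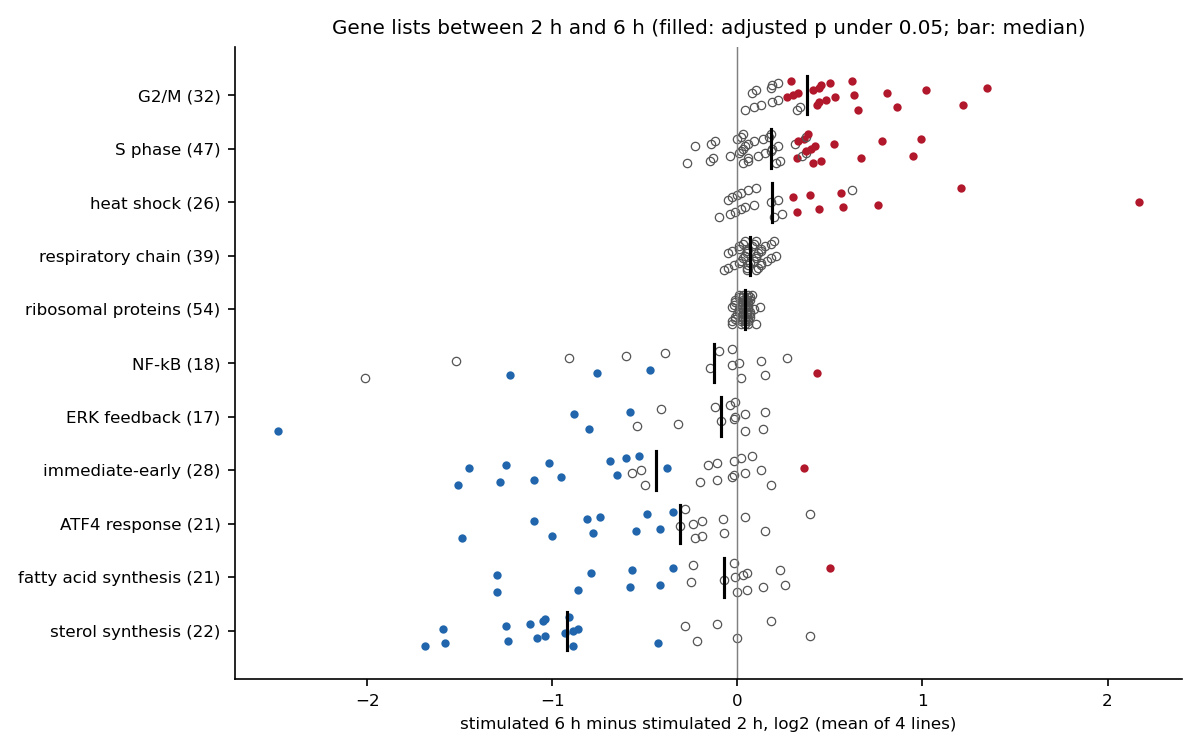
Change from stimulated 2 h to stimulated 6 h (x axis, log2, mean of 4 lines) for each measured member of 11 gene lists (y axis, number of members in brackets). Filled points passed at adjusted p under 0.05 and bars mark list medians, -0.92 for sterol synthesis and 0.38 for G2/M genes.

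The remaining lists are to be read against the 8.13% of all genes that were higher and the 2.6% that were lower. Of 33 receptor signalling genes 2 were higher and 2 lower, with the kinase gene PRKCD at 0.62 ± 0.11 and the PI3-kinase adaptor PIK3AP1 at -0.57 ± 0.11. BTK changed by -0.04 (adjusted p = 0.892). Of 25 calcium and NFAT genes 3 were higher and 2 lower, among them the calcineurin regulator RCAN3 at 0.56 ± 0.09 and the calcium sensor STIM2 at -0.71 ± 0.13. Of 34 B-cell identity genes 6 were higher and 2 lower. The surface protein CD200 rose by 0.80 ± 0.13 and the lymphoid factor IKZF1 by 0.62 ± 0.10, whereas ID2, an inhibitor of E proteins, fell by 1.00 ± 0.14 on its brightest probe set. Another ID2 probe set changed by -0.53 (adjusted p = 0.246), with -1.56 and -0.85 in DT40 and B41-13 and 0.14 in both B7.10 and B46-5. The dimmer ones changed by -0.12 and -0.05. Of 27 p53 and apoptosis genes 5 were lower and 1 higher. The survival gene MCL1 fell by 0.66 ± 0.12 and the death-promoting BMF by 0.99 ± 0.15, so members of opposite role fell together. Ribosome biogenesis had 2 higher and 1 lower of 39, ER stress 1 and 1 of 25, and plasma-cell genes 2 and 1 of 8. Limma called 0 of 54 ribosomal protein genes (0 at an unadjusted p under 0.05) and 0 of 39 respiratory chain genes (5 at an unadjusted p under 0.05). Of 19 genes of splicing and RNA turnover 3 were higher and 0 lower, and 1 without both disputed arrays. Limma called 0 of 8 genes chosen earlier on these samples for their 6 h response (4 at an unadjusted p under 0.05). Without both disputed arrays the receptor list had 1 higher and 1 lower, the calcium list 3 and 1, the identity list 3 and 1, the p53 list 0 and 3, and the ribosome biogenesis, ER stress and plasma-cell lists 0.

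The second question was whether the change between 2 h and 6 h differed between the 2 lines with active BTK kinase (DT40, B41-13) and the 2 without (B7.10, B46-5). It differed for 58 probe sets (0.151%; limma, Benjamini-Hochberg), 12 of which changed more upwards (0.0313%) and 46 more downwards (0.12%) in the lines with active kinase. The same 2 h and 6 h values chose these probe sets, so their medians are a description. For the 46 the median 2 h level stood 1.82 and 1.75 log2 above the unstimulated level in DT40 and B41-13, against 0.05 and 0.07 in B7.10 and B46-5. From 2 h to 6 h the medians were -1.74 and -1.41, against 0.04 and -0.04. The 46 probe sets include 36 with 1 symbol, for 32 genes. The count was 7 without B7.10, 8 without B46-5, 77 without DT40, 86 without B41-13 and 43 without both disputed arrays.

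NR4A3, an orphan nuclear receptor of the immediate-early class, had the smallest adjusted p. It stood at 2.93, 3.26, 3.09 and 3.12 without stimulation, at 5.38, 3.03, 5.27 and 3.17 at 2 h and at 2.97, 2.84, 2.94 and 2.97 at 6 h. Only the 2 h arrays of DT40 and B41-13 lay above 3.96, and the other levels are near background, which limits how well the size of the fall is known. The fall was larger by 2.17 ± 0.18 log2 in the active lines (adjusted p = 4.5e-05). NR4A3 kept its call in each alternative that included it. The filter on dim probe sets left NR4A3 out, so that setting gives no result for it. Its relative NR4A2 differed by -1.84 ± 0.19 (adjusted p = 0.00049), from 6.48, 4.31, 6.09 and 4.47 at 2 h to 4.35, 4.02, 3.87 and 4.09 at 6 h.

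RASGEF1A, an exchange factor for RAS-family GTPases, stood at 4.84, 4.71, 6.22 and 3.92 unstimulated, at 9.44, 5.26, 10.06 and 5.47 at 2 h and at 5.06, 4.93, 6.48 and 4.33 at 6 h. The 2 h arrays of DT40 and B41-13 lay far above all others. The difference in its fall was -3.25 ± 0.32 (adjusted p = 0.000404), or 9.5-fold. RASGEF1A kept its call in every alternative, the filter on dim probe sets included. In the lines without active kinase the rise at 2 h was 1.05 on this probe set (adjusted p = 0.0227) and 0.68 on the brighter one (adjusted p = 0.276). DUSP5 stood at 9.27, 4.51, 9.90 and 5.82 at 2 h and at 5.47, 3.92, 5.65 and 4.53 at 6 h, a mean fall of 2.48 ± 0.53 over the 4 lines (adjusted p = 0.00653). Its fall was larger by 3.08 ± 0.45 with active kinase (adjusted p = 0.00805). That call was lost without B7.10 (adjusted p = 0.209) or B46-5 (0.106) and with trend and robust settings (0.124), and the mean fall without DT40 (0.0713) or both disputed arrays (0.0664).

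EGR1, the classical immediate-early zinc-finger factor, stood at 6.63, 3.30, 6.18 and 3.07 at 2 h and at 3.26, 2.67, 4.44 and 2.77 at 6 h, against 3.09, 3.00, 3.77 and 2.60 unstimulated. Its fall was larger by 2.09 ± 0.35 in the active lines (adjusted p = 0.0254). Without DT40 the difference was -1.28 (adjusted p = 0.0437). The call was lost without B7.10 (0.247) or B46-5 (0.53), with the 8 arrays alone (0.132), without the 24 h arrays (0.0628) and with trend and robust settings (0.105), and EGR1 lay near background in B7.10 and B46-5 at all 3 points. ATF3, a stress-induced relative of ATF4, had a smaller difference of -1.29 ± 0.21 (adjusted p = 0.0218), and it also rose at 2 h without active kinase, by 0.83 (adjusted p = 0.00853).

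Of 18 NF-kB targets 3 were among the larger falls with active kinase (CD83, TNFAIP3 and NFKBIA; 8 at an unadjusted p under 0.05 either way), against 0.161% of all genes in that direction. CD83, a surface marker of activated B cells, stood at 3.29, 2.98, 4.84 and 3.18 unstimulated, at 8.84, 3.27, 9.06 and 3.73 at 2 h and at 4.12, 3.13, 6.29 and 3.31 at 6 h. In B41-13 the 6 h level stood 1.45 above the unstimulated one and in DT40 0.83, while B7.10 and B46-5 were near background throughout. For the active lines together this 6 h response of 1.14 did not pass in limma (adjusted p = 0.389), and the 6 h array of B41-13 is a disputed one. The difference in the change from 2 h to 6 h was -3.46 ± 0.40 (adjusted p = 0.00123). It was lost without B7.10 (adjusted p = 0.13) or B46-5 (0.106). The levels of B7.10 and B46-5 are too near background to give an exact fold. Over all 4 lines the CD83 change of -2.01 did not pass (adjusted p = 0.0894).

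TNFAIP3, the A20 protein that shuts down NF-kB signalling, stood at 8.08, 4.57, 8.55 and 3.81 at 2 h and at 4.50, 4.16, 6.24 and 4.02 at 6 h (difference -2.84 ± 0.33, adjusted p = 0.00107). NFKBIA, the inhibitor that holds NF-kB in the cytoplasm, peaked in every line, at 10.32, 8.80, 10.68 and 8.56, and stood at 8.14, 8.24, 8.97 and 8.09 at 6 h. Its fall was larger by 1.43 ± 0.24 in the active lines (adjusted p = 0.0267). That call was lost without DT40 (0.0553), B7.10 (0.247), B46-5 (0.433) or the stimulated 2 h array of B41-13 (0.0985). TNIP2 and TRAF3, further regulators of this pathway, differed by -2.34 ± 0.25 (adjusted p = 0.000508) and -1.57 ± 0.19 (adjusted p = 0.00143). In the 4-line comparison the NF-kB list had 1 higher and 3 lower of 18, and 0 each way without both disputed arrays. Its medians by line were -0.49, -0.01, -0.17 and 0.07. TNFAIP3, TNIP2, TRAF3, NR4A2, ATF3, MAP3K8, SH3BP2, PIK3CB, DYRK1A and WAC were chosen after their values were seen, from the 58 called. Results of the alternatives are not given for these genes. How far their calls hold without a line or an array is therefore not shown here.

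Signalling genes among the 46 included the MAP kinase kinase kinase gene MAP3K8 (-1.73 ± 0.28, adjusted p = 0.017), the adaptor SH3BP2 (-1.76 ± 0.28, adjusted p = 0.017) and the catalytic PI3-kinase subunit PIK3CB (-1.46 ± 0.21, adjusted p = 0.00714). WNT9A, a secreted ligand, stood at 6.46, 4.96, 7.75 and 5.07 at 2 h and at 4.25, 4.56, 5.11 and 4.41 at 6 h, a difference of -1.90 ± 0.20 (adjusted p = 0.000404, and 0.0629 without B7.10). BTG2, an antiproliferative early gene, differed by -1.63 ± 0.17 on 1 of its 3 probe sets (adjusted p = 0.000404, and 0.0588 without B46-5), and by -1.03 on the brightest (adjusted p = 0.0851).

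In 10 of the 46 the lines without active kinase were called higher at 6 h than at 2 h, as were 1.47% of all probe sets. The choice of the 46 on the same arrays favours such rises, so this count is a description. Some of these, such as DYRK1A, a protein kinase gene, also fell in the active lines (-0.62 against 0.54). For WAC, a gene of the ubiquitin pathway and autophagy, the 2 h levels were 6.61, 5.29, 6.23 and 4.53 and the 6 h levels 6.66, 6.97, 6.32 and 6.58. The active lines stayed level, and the other lines were low at 2 h alone (difference -1.79 ± 0.27, adjusted p = 0.0119). Among the 12 probe sets that went the other way, CREBRF, a regulator of the unfolded protein response, had 2 h levels of 6.47, 7.84, 6.06 and 7.71 and 6 h levels of 6.65, 6.98, 6.53 and 6.76, and was higher at 2 h than at 6 h in B7.10 and B46-5 alone. Its difference of 1.23 ± 0.19 (adjusted p = 0.0135) was lost without B7.10 (0.157), B46-5 (0.324), B41-13 (0.0739), its 2 h array (0.0765) or both disputed arrays (0.222). LOC424111, an uncharacterised gene, stood at 4.89, 6.30, 5.37 and 6.27 at 2 h, against 6.92, 7.03, 7.30 and 7.25 unstimulated, a deeper dip with active kinase. At 6 h it stood at 7.29, 7.17, 7.50 and 7.21. The difference was 1.36 ± 0.17 (adjusted p = 0.00243, 0.108 without B7.10 and 0.0834 without B46-5), and 0.05 on its other probe set.

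**Figure D3:**
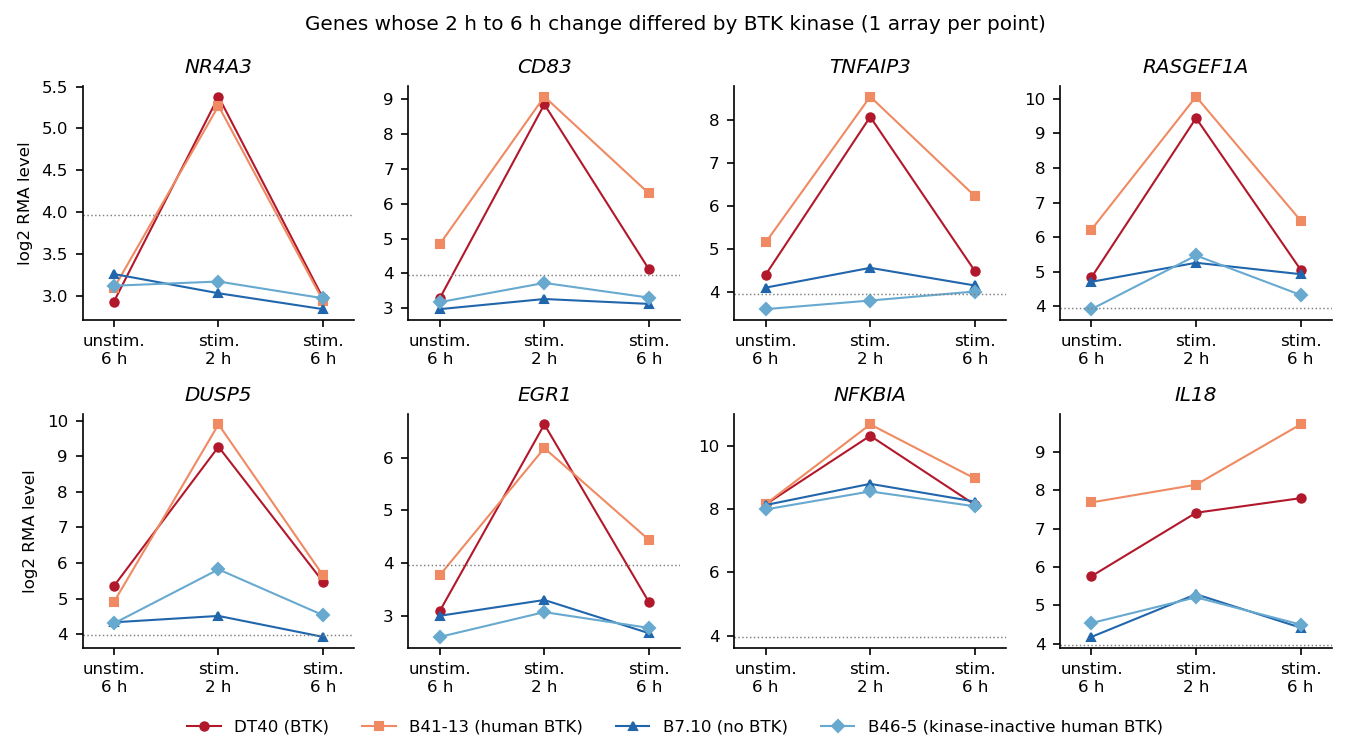
Log2 RMA levels of 8 genes (y axis) at unstimulated 6 h, stimulated 2 h and stimulated 6 h (x axis) in the 4 lines, 1 array per point, with a dotted line at 3.96 log2, near background. NR4A3, CD83, TNFAIP3, RASGEF1A, DUSP5, EGR1 and NFKBIA peak higher at 2 h in DT40 and B41-13 than in B7.10 and B46-5, and IL18 goes on rising to 6 h in those 2 lines.

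**Figure D4:**
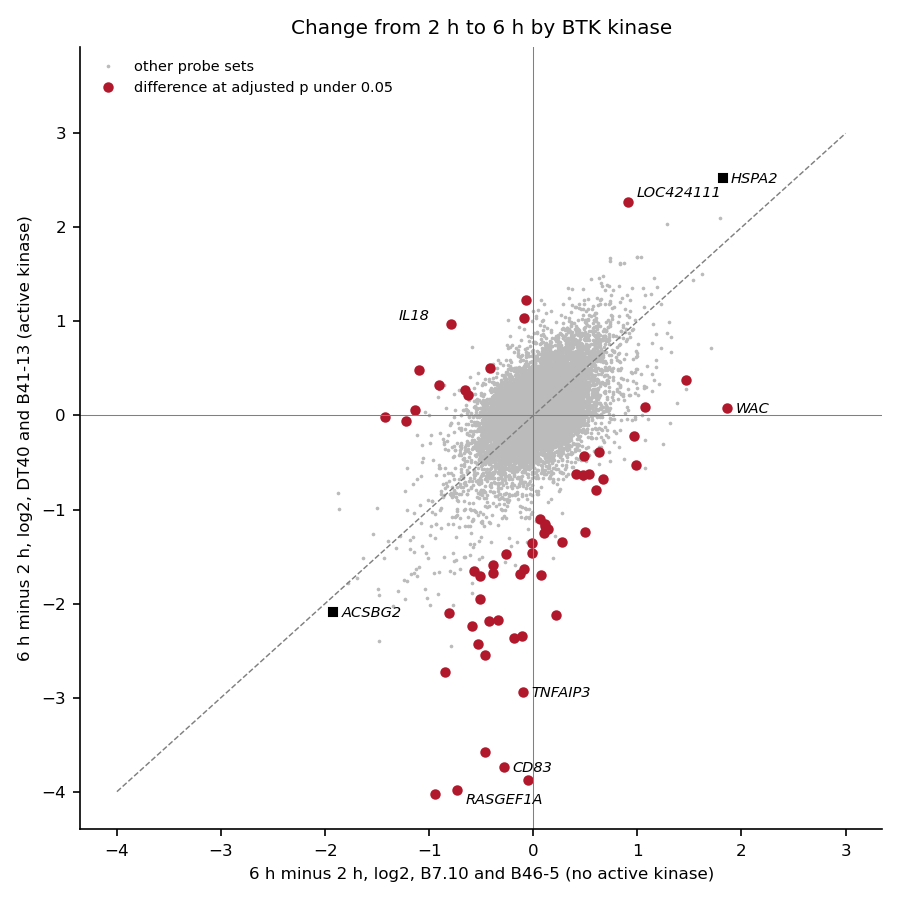
Change from stimulated 2 h to 6 h in the lines without active BTK kinase (x axis, log2) and with it (y axis, log2), 1 point per probe set. The 58 probe sets whose change differed are red, most of them low on the y axis and near 0 on the x axis, while ACSBG2 (square) lies close to the dashed line of equal change and HSPA2 (square) somewhat above it.

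Calls of a difference from the unstimulated level at 6 h were rare. Over all 4 lines the lasting rise was 1 probe set, of HCFC2, a host cell factor gene, with 5.40, 5.31, 5.25 and 5.36 unstimulated, 5.90, 5.86, 5.69 and 5.92 at 2 h and 5.86, 5.95, 5.97 and 6.09 at 6 h. Both stimulated times lay above every unstimulated array, by 0.51 (adjusted p = 0.001) and 0.64 (adjusted p = 0.0141). It is 1 of 7 probe sets of that symbol, and 2 of the others were lower at 2 h instead (-0.43 and -0.39). Both late rises read RBM3, a cold-induced RNA-binding protein. The brighter of them stood at 8.45, 8.47, 7.82 and 9.61 unstimulated, 7.92, 8.31, 7.90 and 9.44 at 2 h and 8.96, 9.15, 8.92 and 10.13 at 6 h. It was 0.70 above the unstimulated level (adjusted p = 0.0204). It also rose without stimulation from 6 h to 24 h, by 0.87 (adjusted p = 0.000412), and the brightest RBM3 probe set changed by 0.12 between 2 h and 6 h (adjusted p = 0.544).

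MFGE8, a secreted bridge between phagocytes and dying cells, was the late fall, at 6.28, 6.42, 6.34 and 6.56 at 2 h and 6.18, 6.03, 6.02 and 6.10 at 6 h, against 6.50, 6.78, 6.64 and 6.74 unstimulated. Its change of -0.32 from 2 h to 6 h (adjusted p = 0.0345) was lost with the 8 arrays alone (0.064) and in further settings. The other MFGE8 probe set changed by 0.25 from 2 h to 6 h (adjusted p = 0.306) and differed by 0.13 from the unstimulated level at 6 h (0.68). Without both disputed arrays, or without the line B41-13, limma called 0 probe sets between stimulated and unstimulated 6 h arrays.

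In a contrast of DT40 and B41-13 alone, chosen after the data were seen, 19 probe sets were higher at 6 h of stimulation than unstimulated (0.0495%) and 0 lower (2888 at an unadjusted p under 0.05 in limma). In B7.10 and B46-5 limma called 0 (3922 at an unadjusted p under 0.05). A test of the difference between these responses called 1 probe set (0.00261%), that of MME, so for the others no difference between the lines was shown. The 19 read 11 genes besides 5 probe sets with no single symbol. Of the 19, 8 were already called higher at 2 h (2.14% of all probe sets) and 11 were not called. Between 2 h and 6 h 13 were called higher (3.46%) and 1 lower, in contrasts that share arrays with the first. Without both disputed arrays 10 were called, 7 of them shared, and without DT40 21 were higher and 2 lower, with 6 of the 19 shared.

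MME, a surface peptidase also known as CD10, stood at 6.38, 5.25, 5.82 and 4.66 unstimulated, at 7.08, 5.07, 6.28 and 4.58 at 2 h and at 8.09, 5.18, 7.44 and 4.71 at 6 h. The rise came in steps in DT40 and B41-13, and B7.10 and B46-5 stayed within 0.18 of their unstimulated level. At 6 h it was 1.67 ± 0.15 above the unstimulated level in the active lines (adjusted p = 0.000247), and the difference from the other lines was 1.68 (adjusted p = 0.0216). These values are from 1 of 3 MME probe sets, and the dimmer ones gave 0.57 (adjusted p = 0.17) and 0.42 (adjusted p = 0.537) in the active lines. BASP1, a membrane-associated protein gene, stood at 8.17, 5.80, 10.12 and 5.54 at 2 h and at 9.58, 5.24, 10.92 and 6.10 at 6 h, against 7.55, 5.52, 9.45 and 5.17 unstimulated. At 6 h it was 1.75 ± 0.24 above the unstimulated level in the active lines (adjusted p = 0.00722), with 0.65 at 2 h (adjusted p = 0.166).

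IL18, a cytokine, stood at 5.76, 4.18, 7.68 and 4.54 unstimulated, at 7.41, 5.29, 8.14 and 5.21 at 2 h and at 7.79, 4.42, 9.71 and 4.50 at 6 h. All 4 lines were above their unstimulated level at 2 h, but from there the lines parted, with changes of 0.38 and 1.57 in DT40 and B41-13 and of -0.87 and -0.71 in B7.10 and B46-5. That difference was 1.76 ± 0.30 (adjusted p = 0.0273). It was lost without both disputed arrays (0.306), without B7.10 (0.339), B41-13 (0.0567, difference 1.17), its 2 h array (0.0532) or B46-5 (0.433), with the 8 arrays alone (0.0916) and without the 24 h arrays (0.0659). HAVCR1, a surface receptor, gave a different time course on each of its 3 probe sets. The brightest stood at 6.59 and 7.23 at 2 h in DT40 and B41-13, against 6.80 and 7.49 at 6 h and 5.51 and 6.42 unstimulated. A dimmer one, also higher at 6 h in the active lines (1.54, adjusted p = 0.00553), rose over the 4 lines by 0.77 from 2 h to 6 h (adjusted p = 0.0292, and lost without DT40, B41-13, its 2 h array or both disputed arrays and with trend and robust settings). The last was among the 46 that fell more with active kinase (-1.26, adjusted p = 0.00403), and its 6 h level differed from the unstimulated one by 0.09. The amino acid transaminase BCAT1 had 8.43 and 8.66 at 2 h, 8.80 and 8.98 at 6 h and 7.98 and 7.99 unstimulated. LGALS1A, a galectin gene, stood at 7.11 and 5.64 unstimulated, 7.31 and 5.91 at 2 h and 8.31 and 6.79 at 6 h. Most of its difference lay between 2 h and 6 h. At 6 h the brightest HAVCR1 probe set, BCAT1 and LGALS1A stood 1.18, 0.91 and 1.17 above the unstimulated level (adjusted p = 0.00137, 0.00439 and 0.0062).

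Arrays of DT40 and B7.10 in serum batches 2 and 3 were not in the contrast that called the 19 probe sets. Several of these genes were known from earlier results of the same series, so the values are a description. In DT40 the 19 probe sets had a median 6 h response of 1.39 and 0.91 log2 in the 2 batches. Of them 19 and 14 lay above 0.5, against 631 and 1046 of all 38382 probe sets. In B7.10 the medians were 0.12 and 0.10, with 0 and 2 above 0.5, against 737 and 1704 of all 38382. Descriptions of the stimulated B7.10 arrays of both batches disagree with their titles. MME responded by 1.45 and 1.32 in DT40 and by -0.01 and -0.35 in B7.10, LGALS1A by 1.29 and 1.28 against 0.33 and 0.09, and IL18 by 2.39 and 0.91 against -0.03 and -0.24. Averaged over both lines 392 probe sets differed in these batches (1.02%), and 1 in DT40 alone, which has 2 arrays a side. The 642 transient rises had median responses at 6 h of 0.07 and 0.05 in DT40 and of 0.09 and 0.16 in B7.10 there, near the 0.03 and 0.15 of serum batch 1. Stimulated 2 h arrays of these batches were not analysed here.

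**Figure D5:**
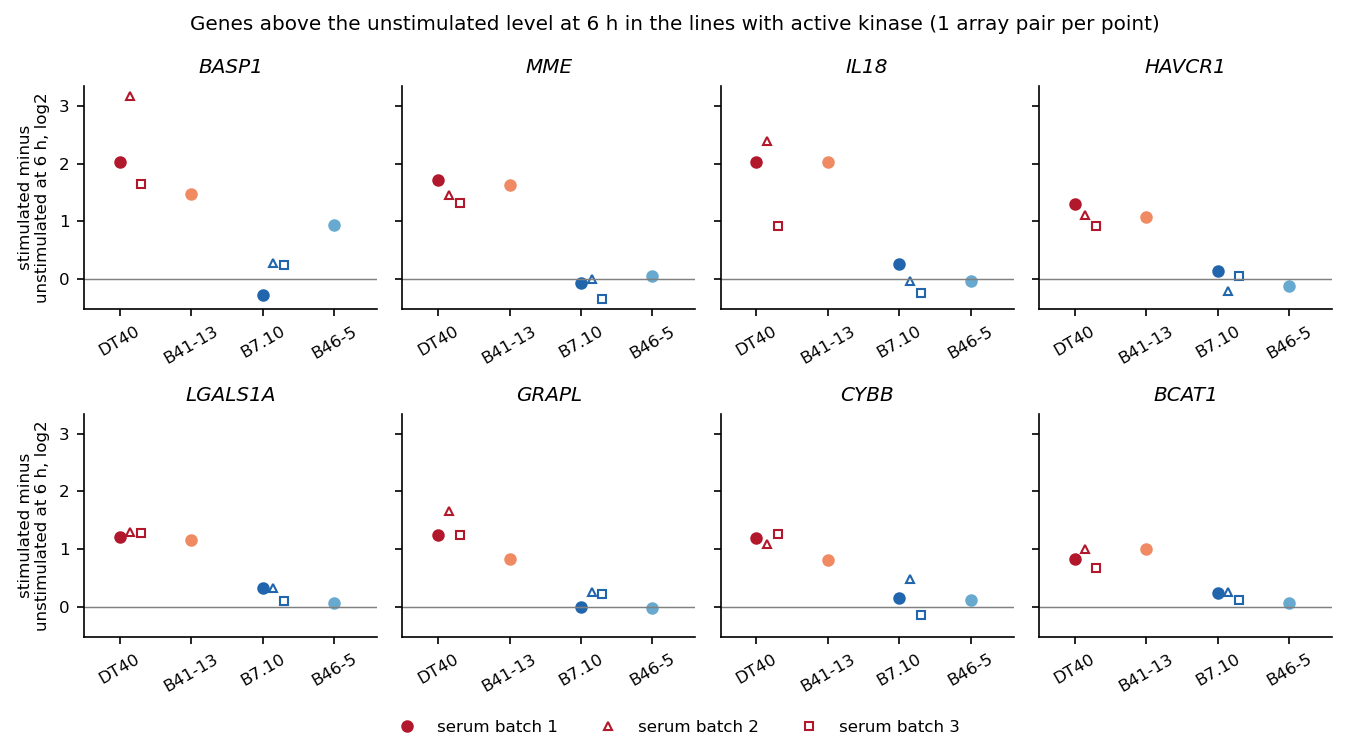
Stimulated minus unstimulated level at 6 h (y axis, log2) of 8 genes in the 4 lines (x axis), 1 pair of arrays per point, filled for serum batch 1 and open for serum batches 2 and 3. All DT40 and B41-13 points lie above 0.5, while the B7.10 and B46-5 points lie below 0.5 except for BASP1 in B46-5.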

How the data were processed

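RNA of DT40-derived lines was measured on Affymetrix chicken arrays. The authors deposited log2 values, for which the submitters' processing notes name RMA. The RMA version, and which arrays were summarised jointly, is not given in these sources. No further normalization was applied. Of 38535 probe sets 153 controls were left out and 38382 tested, of which 27168 had 1 gene symbol, 177 several and 11037 none. Gene and list counts used the brightest probe set of each of 13009 genes.

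Differences were tested with limma 3.58.1 (lmFit, eBayes, R 4.3.3) and Benjamini-Hochberg adjustment over all probe sets, at an adjusted p under 0.05. The fit used 16 arrays of serum batch 1 with condition and line, and a second fit added kinase state by condition. Line is the replicate block, since it is the same line at each time; the lines' 6 h minus 2 h changes correlated at 0.283 to 0.537 across probe sets. Serum batches 2 and 3 were fitted apart. The scripts were tested on simulated data, and Python 3.11.15, pandas 2.3.3 and matplotlib 3.10.9 made summaries and figures. The arrays give no read depth, and their number limits the precision.

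Groups followed titles. Besides the disputed arrays, descriptions disagree with titles for B7.10 stimulated 6 h arrays in serum batches 2 and 3 and for the B46-5 unstimulated 24 h array.

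The members and the 29 gene lists were chosen with earlier results of these data known. Named genes were up to 12 each way by size of change, 5 per time class, 3 called members per list and direction (2 where none was called), 4 each way in the kinase comparison, and EGR1, NR4A3, CD83, MYC, BASP1, IL18, MME and BTK. Further list members given by value, genes called in the kinase comparison beyond the 4, and genes of the 6 h response in lines with active kinase were chosen after their values were seen. Alternatives covered the arrays fitted, the line block, cyclic loess, a filter on dim probe sets, trend and robust settings, and leaving out lines or arrays.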

Additional observations from a re-analysis of the deposited data

Results flagged for a closer look

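Among 4 lines, 1 stood apart from the others in the change from 2 h to 6 h for 4 named genes. The gap test used marks about 1 in 20 groups by chance. The named genes number far more than 20, so 4 marks can arise by chance alone. Their values are a description and do not show that a line differs. ACSBG2 fell least in B46-5, at -1.73 log2, against -2.09, -2.11 and -2.10 in the other lines. TCF12 changed by 0.17 in B46-5, against 0.41 to 0.45. ID3 changed by -0.27 in B7.10, against -0.43 to -0.46, and IRF4 by -0.18 in DT40, against -0.50 to -0.56.

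For 13 named genes the change from 2 h to 6 h differed between lines with and without active BTK kinase in limma's test of that difference. It was lower with active kinase for CD83 (-3.46), RASGEF1A (-3.25), DUSP5 (-3.08), NR4A3 (-2.17), EGR1 (-2.09), WNT9A (-1.90), BTG2 (-1.63) and NFKBIA (-1.43). It was higher for IL18 (1.76), SCRIB (1.58), LOC424111 (1.36), CREBRF (1.23) and RXFP1 (1.13). Up to 4 genes each way were named because this same test called them, so those calls were fixed by the choice. The number called among the named genes is therefore a description. Of all probe sets 0.151% were called. Of the 13 calls 10 were lost without B46-5, 9 without B7.10 and 4 without both disputed arrays. SCRIB was lost without the disputed arrays (adjusted p = 0.0602), DT40 (0.0539) or B46-5 (0.0504), and RXFP1 without the disputed arrays (0.0524), B7.10 (0.136) or B46-5 (0.114). Each of these 2 calls rests on a dimmer probe set. The brightest probe set gave a difference of 0.16 for SCRIB (adjusted p = 0.909) and 0.13 for RXFP1 (adjusted p = 0.934). The called RXFP1 probe set had a mean level of 3.66, near background. MME differed by 1.68 in its response at 6 h against unstimulated cells.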

How the results depend on the processing

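The 2747 probe sets that differed between 2 h and 6 h numbered 1379 to 2159 with 1 line left out and 1142 without both disputed arrays, 1092 of them shared. Without the replicate block by line they were 253 (8 arrays) and 721 (16 arrays). The 3056 of 2 h against unstimulated were 1367 to 1862 with 1 line left out and 1820 without the B41-13 stimulated 2 h array. The 5 of 6 h against unstimulated were 2 without the 24 h arrays, 14 with cyclic loess, 0 without both disputed arrays and 0 to 1 with 1 line left out. Transient rises were 379 to 496 with 1 line left out and 299 without the disputed arrays, and transient falls 444 to 704 and 622, with 642 falls without the B41-13 stimulated 2 h array. Lasting rises, lasting falls, late rises and late falls were 3, 2, 4 and 3 with cyclic loess, and 0 each without the disputed arrays. Without the 24 h arrays lasting falls and late falls were 0 and late rises 1, and late falls were 0 without the B41-13 stimulated 2 h array. With 1 line left out lasting and late rises were 0 to 1 and both kinds of fall 0. The 58 probe sets of the kinase comparison were 7 to 86 with 1 line left out and 99 with trend and robust settings. The 19 of the active lines were 32 with those settings and 10 without the disputed arrays. The 392 of serum batches 2 and 3 were 1002 with the replicate block by batch and 1 in DT40 alone. Where fewer arrays were fitted the alternative itself has fewer samples; for the other shifts the cause was not tested. Of the named genes none reversed, while 31 lost their call without the disputed arrays and 13 to 25 with 1 line left out.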
